A study of Mus musculus with 45 samples.

Results

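Chromatin accessibility around 10 genes with roles in the condensation or the extrusion of the erythroblast nucleus was described in Ter119+ erythroblasts of mice with an intact Stag2 gene (WT) or with Stag2 deleted (KO, also written ∆ in the labels). The 10 genes, Xpo7, Trim58, Cited2, Riok3, Vim, Rac1, Rac2, Diaph1, Hdac2 and E2f2, were chosen by their known roles from a table of 24333 genes, and all 10 had values. Stag2 is part of cohesin, a ring-shaped complex that extrudes chromatin loops. Cells were taken between 6 and 8 weeks after mice of both genotypes had received their final pIpC dose. Of the 45 samples of the series, the 6 single-nucleus ATAC libraries of Ter119+ erythroblasts were used, 3 WT and 3 KO; the other samples were not analysed here. Ter119 is a surface antigen of red cell precursors. The labels do not name the Cre line, nor say from how many animals each library was made. The p-values therefore refer to these libraries. Those from limma draw the spread of a gene partly from other genes.

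In mammals the red cell precursor stops dividing, compacts its chromatin, shrinks its nucleus and pushes it out. Compaction involves histone deacetylation, release of histones to the cytoplasm and opening of the nuclear lamina by caspases. Extrusion involves a contractile ring of actin and myosin, microtubule motors that place the nucleus off centre, vesicle traffic and loss of the intermediate filaments that hold the nucleus. Exit from the cell cycle is needed before both.

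The value used was the gene score, a sum of ATAC fragments around a gene that the authors had scaled to one total per nucleus. It measures accessibility, not RNA, and neighbouring genes share fragments in it. Each library's mean scores were rescaled to a sum of 1000000 over genes, and a level below is a value on that scale. Levels depend on the length and setting of a gene and are compared only between samples, not between genes. The authors had placed each nucleus in a class, Early, Int or Late (Int is read here as intermediate), and in one of 11 clusters. A gene was called changed at a limma adjusted p under 0.05 over all genes tested.

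The libraries held 4617 to 6990 nuclei and 46782673 to 66286151 fragments. KO libraries held fewer nuclei than WT libraries (4800 ± 162 against 6558 ± 643, SD, n = 3 each) and a smaller median share of fragments in peaks (58.8% ± 1.24 against 63.1% ± 1.38); both differences gave an exact permutation p of 0.1, which is the lowest possible with 3 libraries a group (0.35 when adjusted over 7 measures). Late nuclei were shallower than Int nuclei, with library medians of 5693 to 6812 fragments against 10121 to 14998. The class shares varied among WT libraries, where Late nuclei made up 42.5% to 65.9%. Libraries shared 725 of 33320 distinct barcodes. The targeted gene itself had Stag2 scores of 64.2, 65.7 and 65.9 in WT and 61.0, 65.1 and 62.4 in KO (log2 difference -0.054, limma adjusted p = 0.348). A score over the whole gene cannot reveal the loss of single exons. Of the 11 erythroid markers in the table, none was at 0. Their summed score was 2202 to 2433 in WT and 1908 to 2129 in KO. For 6 stem cell markers the sums were 54.1 to 66.0 in WT and 67.9 to 83.2 in KO. They were 184 to 222 and 213 to 240 for 8 myeloid markers, and 85.3 to 93.3 and 97.8 to 107 for 8 lymphoid markers. For 6 megakaryocyte markers they were 274 to 305 in WT and 304 to 318 in KO. The lists hold different genes, so their sums are not compared with each other. The myeloid, lymphoid and megakaryocyte lists also had no marker at 0, and closed genes keep a low score, so these sums do not exclude other cells.

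RefSeq promoters (GRCm38.p6, the build of mm10) were matched for 5 of the 10 genes. Those of 4 are shown because they stand for opposite courses in the data: the scores of Cited2 and Vim were lower in Late than in Int nuclei, and those of Trim58 and E2f2 were higher. Each is the 250 bases before the start site on the plus strand, 5′ to 3′, with CG dinucleotides in capitals.
Cited2, chr10:17722978-17723227: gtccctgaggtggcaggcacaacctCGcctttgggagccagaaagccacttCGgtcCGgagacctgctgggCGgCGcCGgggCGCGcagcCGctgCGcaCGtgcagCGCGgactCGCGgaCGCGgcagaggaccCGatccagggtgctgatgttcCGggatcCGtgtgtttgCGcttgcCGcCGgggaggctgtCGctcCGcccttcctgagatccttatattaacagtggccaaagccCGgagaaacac
Vim, chr2:13574061-13574310: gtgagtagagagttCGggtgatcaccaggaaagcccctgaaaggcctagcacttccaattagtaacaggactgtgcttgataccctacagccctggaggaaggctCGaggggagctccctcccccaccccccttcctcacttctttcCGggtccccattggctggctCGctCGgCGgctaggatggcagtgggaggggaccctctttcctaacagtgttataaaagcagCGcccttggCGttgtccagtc
Trim58, chr11:58640215-58640464: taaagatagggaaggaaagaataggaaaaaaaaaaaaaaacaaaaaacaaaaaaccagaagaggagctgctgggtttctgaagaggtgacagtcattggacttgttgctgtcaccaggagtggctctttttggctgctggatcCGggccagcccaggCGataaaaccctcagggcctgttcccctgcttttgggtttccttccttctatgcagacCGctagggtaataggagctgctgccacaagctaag
E2f2, chr4:136172024-136172273: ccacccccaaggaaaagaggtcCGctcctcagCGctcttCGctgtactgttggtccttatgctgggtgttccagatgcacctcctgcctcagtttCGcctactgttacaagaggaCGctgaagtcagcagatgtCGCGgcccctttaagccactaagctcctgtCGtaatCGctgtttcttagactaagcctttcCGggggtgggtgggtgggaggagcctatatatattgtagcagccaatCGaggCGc
The Cited2 window held 26 CG dinucleotides, more than 90.4% of all promoters of the same length, whose median was 6. The Vim window held 8, that of the upstream start of E2f2 12 and that of Trim58 3. Of the windows not shown, that of Hdac2 held 27, more than 91.4% of promoters, and that of a second E2f2 start held 4. The windows were searched, with 50 further bases after the start, on both strands for the GATA motifs AGATAA and TGATAA, for the CACC box CCACACCC and for the E2F motifs TTTCGCGC and TTTGGCGC. No GATA motif or CACC box was found in the promoters of the 5 genes, against 18.6% and 3.56% of 32851 promoters. The one match was an E2F motif 39 bases after the upstream start of E2f2, a gene whose own product is an E2F factor; 0.813% of promoters held such a motif. A match is a run of letters, not a shown binding site.

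From Int to Late nuclei all 10 genes were called in both genotypes as scaled, 5 of them rising and 5 falling. Vim passed the filter of a mean score of 5 only through Int nuclei, where it is high. Vim and Diaph1 were called in neither genotype under quantile normalization or cyclic loess. With nuclei matched on fragments 6 of the 10 were called in KO. That matching kept 797 of the 2043 to 4527 nuclei of a class in each library. The change was measured within each library and tested with limma. Of all 17747 genes tested, 76% were called in WT and 73.4% in KO, so most genes moved between the classes; 27.4% were higher and 48.6% lower in WT, and 25.9% and 47.5% in KO. The 5 genes that rose were Xpo7, Trim58, Riok3, E2f2 and Diaph1, and the 5 that fell were Cited2, Vim, Rac2, Rac1 and Hdac2. The same genes rose and fell in WT and KO; with libraries centred on their median gene, Hdac2 in KO moved from -0.18 to 0.015 and was not called.

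Xpo7 encodes a nuclear transport receptor that carries histones out of the nucleus of maturing erythroblasts. It lies at chr14:70654246-70766628 on the minus strand. Here and below, values follow the order of replicates 1, 2 and 3. Its score in Int nuclei was 66.8, 61.4 and 66.2 in WT and 63.0, 73.5 and 68.5 in KO. In Late nuclei it was 289, 323 and 335 in WT and 337, 329 and 350 in KO. No Late value came near an Int value, and the genotypes overlapped within each class. The ratio of Late to Int lay between 4.33 and 5.36 in the 6 libraries. The log2 change was 2.27 (SE 0.047, adjusted p = 1.33e-19) in WT and 2.30 (SE 0.047, adjusted p = 5.03e-20) in KO.

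Trim58 encodes a ubiquitin ligase that acts on the microtubule motor dynein. It lies at chr11:58640465-58652404 on the plus strand. Its score rose from 116 to 135 in the Int nuclei of the WT libraries to 196 to 208 in their Late nuclei, and from 131 to 139 to 199 to 208 in KO. The log2 change was 0.69 in WT (adjusted p = 2.14e-13) and 0.58 in KO (adjusted p = 4.45e-12). Riok3, an atypical protein kinase required for nuclear extrusion in cultured erythroblasts, lies at chr18:12128850-12157367 on the plus strand. Its score in WT was 61.1, 60.3 and 62.9 in Int and 99.0, 99.5 and 99.8 in Late nuclei. In KO it was 61.3, 60.4 and 58.2 in Int and 100.5, 98.7 and 94.0 in Late nuclei. The libraries of one class lay close together, and the log2 change was 0.69 in WT and 0.70 in KO (adjusted p = 5.18e-13 and 5.62e-13).

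E2f2 encodes an E2F factor that acts in the exit of erythroblasts from the cell cycle. It lies at chr4:136172274-136196057 on the plus strand. Its score rose from 257 to 282 in Int to 376 to 396 in Late nuclei of WT libraries, and from 267 to 278 to 357 to 384 in KO. The log2 changes were 0.51 and 0.45 (adjusted p = 6.68e-12 and 7.17e-11). Diaph1 encodes a formin, a protein that builds unbranched actin filaments. It lies at chr18:37843601-37935423 on the minus strand. Its rise was small, 0.14 in WT (adjusted p = 0.00147) and 0.13 in KO (adjusted p = 0.00273) on the log2 scale, and its Int values of 83.1 to 93.8 in WT overlapped its Late values of 92.3 to 101. Within each of the 6 libraries its Late value was the higher. The call was lost in both genotypes under quantile normalization (0.061 in WT and 0.066 in KO) and cyclic loess (0.045 and 0.057), and in KO also with matched nuclei (0.090, adjusted p = 0.263).

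Cited2 encodes a transcriptional co-regulator that binds the acetyltransferase CBP. It lies at chr10:17723228-17725674 on the plus strand, and its fall on the log2 scale was the widest of the 10 in WT. Its score in WT was 42.2, 40.0 and 30.2 in Int and 17.9, 14.5 and 19.7 in Late nuclei. In KO it was 65.7, 64.0 and 59.6 in Int and 46.8, 48.3 and 43.2 in Late nuclei. On the log2 scale the fall was larger in each WT library than in any KO library. In score units WT replicate 3 fell least of all libraries. Even the Late nuclei of KO lay above the Int nuclei of WT. The log2 change was -1.06 in WT (SE 0.092, adjusted p = 6.97e-10) and -0.45 in KO (SE 0.092, adjusted p = 0.00017). With nuclei matched on fragments the KO change was -0.23 and was no longer called (adjusted p = 0.134).

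Vim encodes vimentin, the intermediate filament protein that red cell precursors lose before the nucleus leaves. It lies at chr2:13574311-13582826 on the plus strand. Its score was low, 8.53, 6.04 and 5.27 in Int and 2.96, 3.00 and 3.44 in Late nuclei of WT, and 6.97, 7.06 and 7.95 in Int and 3.94, 4.49 and 5.11 in Late nuclei of KO. Its Late means of 3.13 in WT and 4.51 in KO lay under the filter of 5, which Vim passed here through Int nuclei, where it is high; both calls held with no filter. Every library fell, by 0.86 in WT and by 0.60 in KO on the log2 scale (adjusted p = 7.80e-06 and 5.64e-04). Only 3.20% to 4.86% of Late nuclei had any Vim score. Under quantile normalization and cyclic loess the change of Vim was -0.034 to -0.011 in WT and -0.018 to -0.014 in KO and was not called, and the KO call was also lost with matched nuclei (-0.54, adjusted p = 0.0659).

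Rac1 and Rac2 encode small GTPases that organise the actin ring behind the nucleus; Rac2 is largely a blood cell gene. Rac1 lies at chr5:143505481-143527993 and Rac2 at chr15:78559169-78572783, both on the minus strand. Rac1 fell from 85.8 to 89.7 in Int to 66.1 to 69.2 in Late nuclei of WT, and from 86.1 to 91.7 to 66.7 to 72.8 in KO. Rac2 fell from 32.7, 36.1 and 25.2 to 19.0, 17.97 and 17.5 in the WT libraries and from 46.8, 44.0 and 37.2 to 25.5, 23.5 and 22.6 in the KO libraries. All 6 libraries fell for both genes, Rac1 by 0.37 in WT and 0.34 in KO and Rac2 by 0.74 and 0.81 on the log2 scale; the highest of the 4 adjusted p was 3.77e-07. Hdac2 encodes a histone deacetylase required for chromatin condensation in mouse erythroblasts and lies at chr10:36974544-37001888 on the plus strand. Its score was 35.0, 31.4 and 28.8 in Int and 25.5, 24.8 and 25.7 in Late nuclei of WT, and 35.7, 33.4 and 36.9 in Int and 31.4, 28.7 and 33.5 in Late nuclei of KO. Its log2 change was -0.31 in WT (adjusted p = 2.37e-04) and -0.18 in KO (adjusted p = 0.0224), and the KO call was lost when any 1 of the KO libraries 1, 2 or 3 was left out (adjusted p = 0.0816, 0.117 and 0.0527). It was also lost under quantile normalization (-0.0074), cyclic loess (-0.033) and with matched nuclei (-0.020). In WT the Hdac2 call was lost under median centring (-0.10), quantile normalization (-0.11) and with matched nuclei (-0.25).

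**Figure D1:**
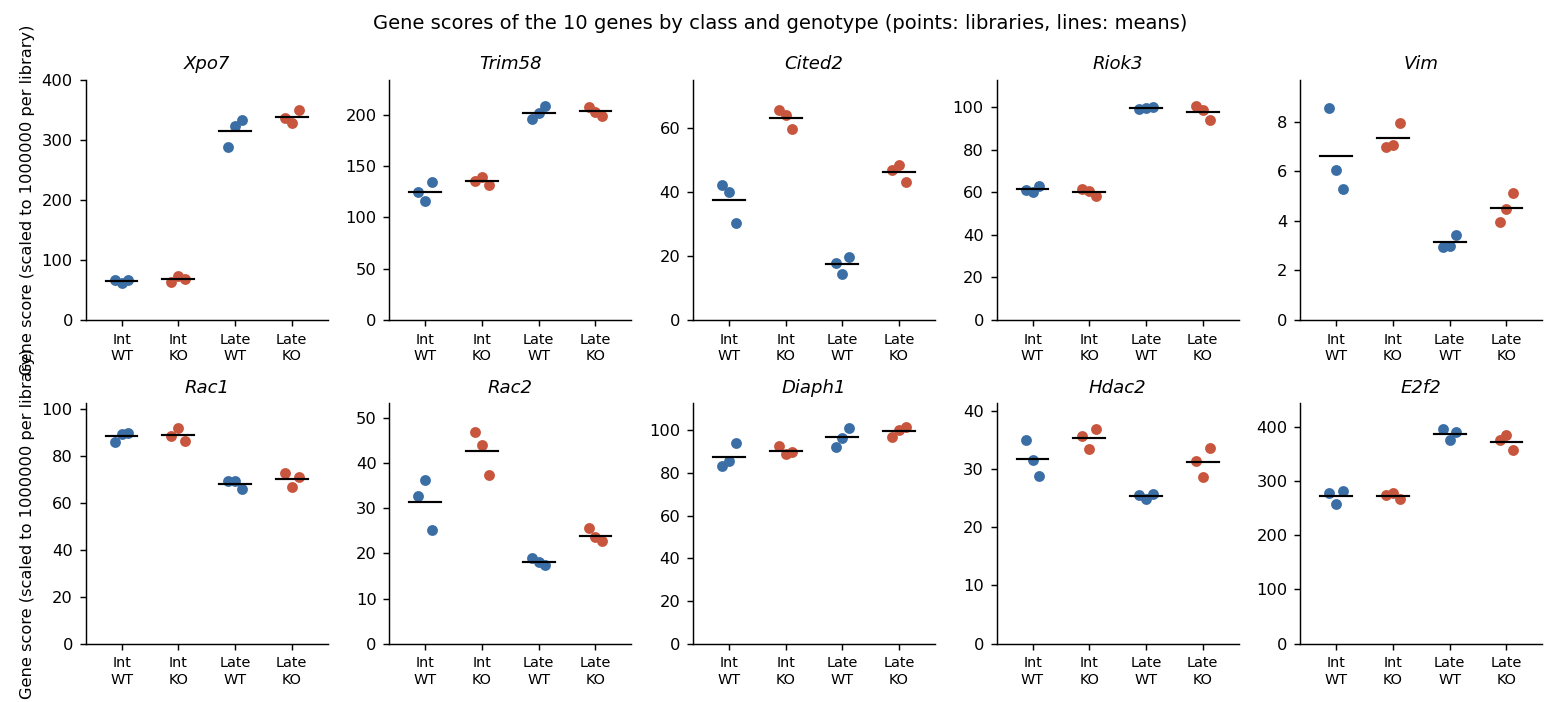
Gene score (vertical axes, scaled to 1000000 per library and starting at 0) of the 10 genes in Int and Late nuclei of WT (blue) and KO (red) libraries; points are libraries and lines are means of 3. Xpo7 rises from 61.4 to 73.5 in Int to 289 to 350 in Late nuclei in both genotypes, and the Cited2 points of KO lie above those of WT in both classes.

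**Figure D2:**
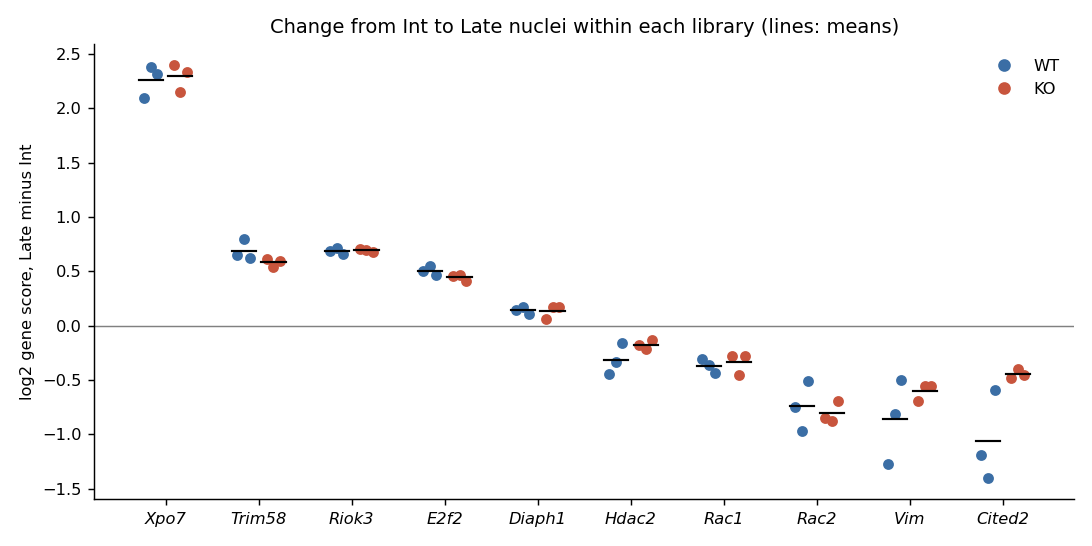
Log2 gene score in Late minus Int nuclei of the same library (vertical axis) for each gene, ordered by the WT mean; points are libraries, WT in blue and KO in red, and lines are means of 3. Xpo7, Trim58, Riok3, E2f2 and Diaph1 lie above 0 and the other 5 genes below, and Cited2 is the gene whose WT mean (-1.06) and KO mean (-0.45) are farthest apart.

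Whether loss of Stag2 altered accessibility at these genes was asked first over all nuclei. The scores of Cited2, Rac2, Vim and Hdac2 were called higher in KO, by 2.03, 1.35, 1.28 and 1.18 times in the mean. None of the 10 was called lower. Of 17682 genes tested, 43.3% were called and 29.1% were called higher in KO, so 4 of 10 lies near the background, with Vim counted or not. One of the 4, Vim, passed the filter of a mean score of 5 over the 6 libraries only through KO, and nothing is drawn from its call. The 3 KO libraries lay above the 3 WT libraries for those 4 genes and for 36.1% of all genes tested. The median log2 difference of the 10 genes was 0.046, against 0.096 over all genes tested. Over all nuclei differences followed the level of a gene: 43.2% of the genes with a mean score of 5 to 20 were higher in KO, 30.6% of those from 20 to 60 and 9.77% of those above. In the same order the shares were 55.2%, 29.4% and 11.8% in Late nuclei. In Int nuclei they were 9.28%, 23.4% and 8.41%, without a steady fall. The median log2 differences of these bands did fall steadily in Int nuclei, at 0.15, 0.056 and -0.060. Over all nuclei these medians were 0.26, 0.048 and -0.070. With Vim left aside, the called genes Cited2, Rac2 and Hdac2 are the 3 of the 10 with a mean score of 20 to 60. Whether they differ from genes of their level was not tested. The share of calls that were higher in KO was 67.1% as scaled, 35.4% with libraries centred on their median gene and 46.9% under quantile normalization; centring moved the median of all genes from 0.096 to -0.050.

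**Figure D3:**
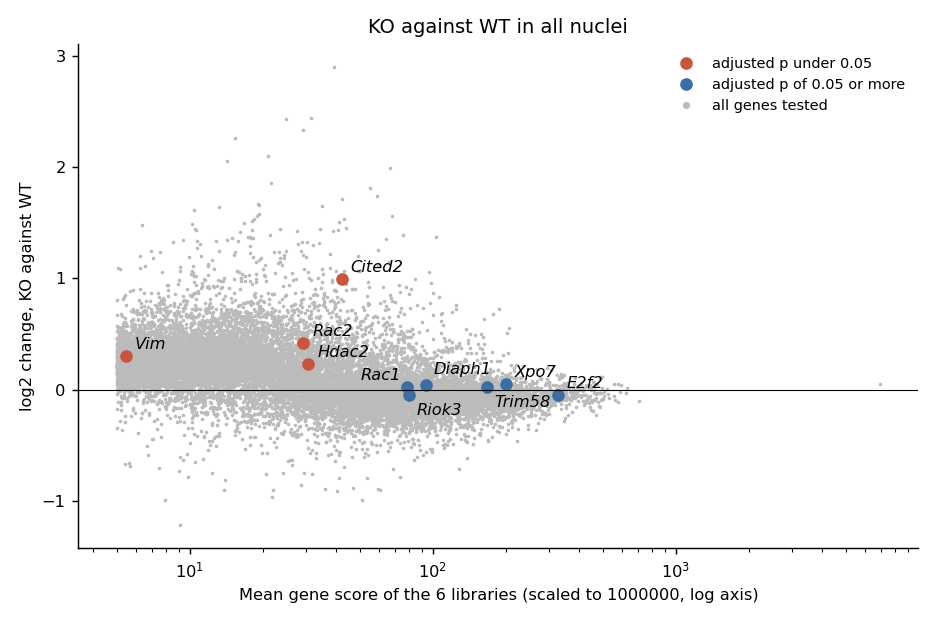
Log2 difference of KO against WT in all nuclei (vertical axis) against the mean gene score of the 6 libraries (log axis) for every gene tested (grey) and the 10 genes (red where the adjusted p is under 0.05, blue where not). Cited2 lies highest of the 10, at 0.996, and the 6 uncalled genes lie between -0.052 and 0.051.

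Cited2 stood out among the 10. In Int nuclei 2 of the 10 genes were called, both higher, against 19.8% of 19465 genes called and 12.7% called higher. In Late nuclei it was 3 of 9, all higher, against 51.4% of 15886 called and 32.9% called higher. The Cited2 score over all nuclei was 27.4, 30.1 and 26.0 in WT and 62.4, 55.9 and 51.5 in KO. Every KO library held more than 1.5 times the score of any WT library. The log2 difference was 0.996 (SE 0.074, adjusted p = 1.86e-08) over all nuclei, 0.75 (SE 0.084, adjusted p = 1.71e-07) in Int nuclei and 1.37 (SE 0.094, adjusted p = 1.28e-07) in Late nuclei. Nuclei with any Cited2 score made up 8.31% to 8.73% of Late nuclei in WT and 16.7% to 17.0% in KO, at similar depth. The call held under all 18 alternatives over all nuclei and all 17 in each class. No other tested gene started within 100 kb of Cited2 in all or in Late nuclei; in Int nuclei Txlnb did and was not called. Some marker lists of other cells were also higher in KO. In Late nuclei the 6 stem cell markers summed to 32.3 to 38.1 in WT and 51.8 to 58.1 in KO. Of these, 4 were tested and all 4 called higher, and 2 of 5 lymphoid markers were also called higher. Of all genes with a mean score of 5 to 20 in Late nuclei, 55.2% were called higher in KO. Whether the markers differ from genes of their level was not tested. Of 7 myeloid markers 4 were called higher there, with sums that overlapped (228 to 247 in WT and 239.6 to 275 in KO). In Int nuclei the stem cell sums overlapped (70.0 to 87.7 in WT and 83.9 to 94.5 in KO) and 0 of 6 were called, while the myeloid sums did not (147 to 172 and 189 to 205) and 4 of 8 were called higher. The lymphoid sums did not overlap in Late (67.4 to 74.9 in WT and 82.8 to 86.9 in KO) or Int nuclei (98.5 to 112 and 113 to 125), though in Int nuclei 0 of 7 markers were called. Megakaryocyte markers went both ways, with 2 higher and 2 lower of 4 in Late and 1 higher and 2 lower of 5 in Int nuclei. None of these markers was at 0, and their part in the Cited2 and Rac2 results was not tested.

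Rac2 was higher in KO in each fit. Its score over all nuclei was 24.3, 28.2 and 22.1 in WT and 38.3, 32.8 and 29.9 in KO, without overlap. The log2 difference was 0.42 (SE 0.097, adjusted p = 0.00250) over all nuclei, 0.44 (SE 0.10, adjusted p = 0.00193) in Int and 0.38 (SE 0.078, adjusted p = 0.00129) in Late nuclei. All 5 tested genes that start within 100 kb of Rac2, namely Il2rb, C1qtnf6, Sstr3, Gm36738 and Cyth4, were also higher in KO over all nuclei and in Late nuclei, by 0.32 to 0.48 on the log2 scale. In Int nuclei 1 of the 5, C1qtnf6, was called. A score cannot tell which gene of such a stretch the fragments belong to. The Rac2 call was lost with nuclei weighted by fragments over all nuclei (0.37, adjusted p = 0.0920), without a variance trend in Int (adjusted p = 0.103) and under quantile normalization in Late nuclei (0.19, adjusted p = 0.0619).

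Hdac2 and Vim differed less. The Hdac2 score over all nuclei was 28.8, 28.4 and 27.5 in WT and 34.2, 30.8 and 35.2 in KO, apart by little. Its log2 difference was 0.23 (adjusted p = 0.0177), and in Late nuclei it was 0.29 (SE 0.072, adjusted p = 0.00470) and was lost under quantile normalization (0.17, adjusted p = 0.0818); in Int nuclei it was 0.15 and was not called (adjusted p = 0.211). Leaving out KO replicate 1 or KO replicate 3 ended the call over all nuclei (adjusted p = 0.0562 and 0.0903), as did weighting by fragments, median centring (0.086), quantile normalization (0.10) and cyclic loess (0.13). Vim scored 4.98, 4.92 and 4.50 in WT and 6.22, 5.66 and 6.55 in KO (log2 difference 0.30, adjusted p = 0.0317). Its WT mean of 4.799 lay under the filter of 5 and its KO mean of 6.15 above it, so Vim was tested through the group where it is high; with no filter it was not called (adjusted p = 0.0538). The Vim call was lost in 11 alternatives, among them leaving out WT replicate 1, WT replicate 3, KO replicate 1 or KO replicate 3 (adjusted p = 0.0591, 0.0931, 0.0872 and 0.114). In Late nuclei Vim fell below the score filter and was not tested.

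Xpo7, Trim58, Riok3, Rac1, Diaph1 and E2f2 were not called over all, Int or Late nuclei. Over all nuclei their log2 differences lay between -0.052 and 0.051, and the 95% intervals of all 6 lay between -0.17 and 0.18. Xpo7 scored 213, 197 and 180 in WT and 185, 214 and 212 in KO over all nuclei. In Late nuclei its KO values of 337, 329 and 350 lay mostly above the WT values of 289, 323 and 335, with a log2 difference of 0.10 (95% interval -0.0030 to 0.21, adjusted p = 0.0948); without WT replicate 3 it was 0.15 and was called (adjusted p = 0.0243), as under cyclic loess (0.14, adjusted p = 0.0193) and without nuclei of high doublet enrichment (0.14, adjusted p = 0.0384). Trim58 in Int nuclei differed by 0.11 (adjusted p = 0.135) and was called without WT replicate 3 (0.17, adjusted p = 0.0223), as under quantile normalization and cyclic loess. Over all nuclei Xpo7 was called with matched nuclei (0.16, adjusted p = 0.0265) and Riok3 under median centring (-0.20, adjusted p = 0.0253).

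**Figure D4:**
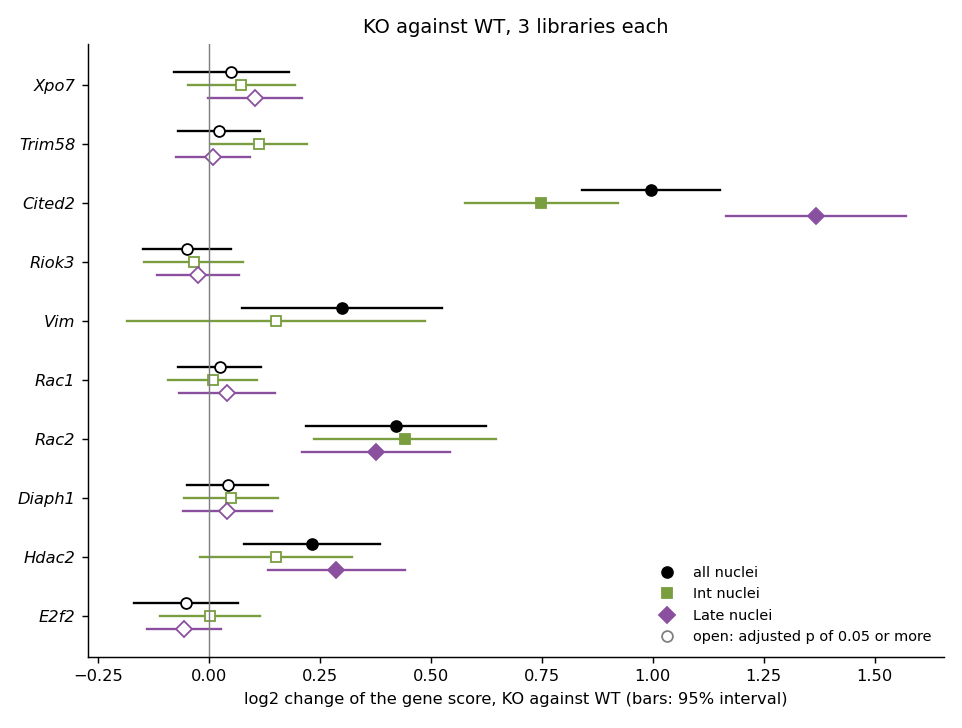
Log2 difference of the gene score, KO against WT (horizontal axis), for each gene over all nuclei (circles), Int nuclei (squares) and Late nuclei (diamonds), with 95% intervals from limma, 3 libraries each; filled symbols have an adjusted p under 0.05. Cited2 lies at 0.75 to 1.37 and Rac2 at 0.38 to 0.44, while the intervals of Riok3, Rac1, Diaph1 and E2f2 span 0 in all 3 fits.

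The KO effect was then compared between classes within libraries. Of the 10 genes only Cited2 was called, with a KO effect larger in Late than in Int nuclei by 0.62 on the log2 scale (SE 0.13, adjusted p = 0.00566), against 7.49% of 17747 genes. The Late minus Int changes behind it were -1.19, -1.40 and -0.59 in WT and -0.48, -0.40 and -0.46 in KO, and WT replicate 3 lay nearest to KO. The SD of these changes was 0.42 in WT and 0.042 in KO, while limma's SE draws on other genes as well. The stem cell markers moved the same way as Cited2, with a median of 0.43 against 0.019 over all genes and 1 of 6 called higher. The other lists did not. Their medians were -0.10 for myeloid (1 of 7 called lower), -0.037 for lymphoid, -0.027 for megakaryocyte and -0.059 for erythroid markers (2 of 11 called lower). The part of these markers in the Cited2 result was not tested. The differences of the other 9 genes lay between -0.10 and 0.26 and were not called, the widest interval being that of Vim, -0.15 to 0.67. Under quantile normalization E2f2 was called (-0.15, adjusted p = 0.0162). The Cited2 call was lost in 4 alternatives: with matched nuclei (0.62, adjusted p = 0.145), under quantile normalization (0.37, adjusted p = 0.0818), without a variance trend (adjusted p = 0.154) and with the trend taken on the mean difference (adjusted p = 0.152). Matching kept 797 nuclei of each class in each library.

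The authors' clusters divided the nuclei by genotype as well as by class, which limits what can be compared inside one. KO nuclei made up 97.4% of cluster C2, 99.4% of C8 and 99.9% of C10, but 0.740% of C3, 0.971% of C9, 1.32% of C6 and 0.0554% of C11. Levels of clusters held by 1 genotype are a description, since what the clustering used is not given in the sources used here and may include these 10 genes. In the mostly Late clusters Xpo7 scored 320 ± 23.4 in C3 (WT, SD, n = 3) and 341 ± 11.7 in the KO nuclei of C2, and in the Int clusters C8, C9, C10 and C11 it had means of 58.9 to 72.9. Early nuclei had a Cited2 score of 126 and 123 in WT replicates 1 and 2 and 146 in KO replicate 1, the libraries with at least 50 such nuclei, so the order of Cited2 levels was Early, Int, Late in both genotypes.

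Among Int clusters, Cited2 scored 65.5 ± 11.8 in C9 (WT) and 82.3 ± 7.49 in C8 (KO), and the lowest of C8, 73.7, lay under the highest of C9, 74.3. It scored 27.9 ± 3.30 in C11 (WT) and 51.5 ± 5.57 in C10 (KO), where the libraries did not overlap. Rac2 was alike in C9 and C8 (57.3 ± 2.92 and 56.3 ± 3.96) and lay apart in C11 and C10 (22.2 ± 2.06 and 33.8 ± 2.16). Hdac2 scored 35.0 ± 2.05 and 39.7 ± 1.19 in C9 and C8, and 32.0 ± 1.36 and 34.9 ± 1.22 in C11 and C10. In the Late pair, C3 (WT) and the KO nuclei of C2, Cited2 scored 17.3 ± 2.86 and 45.7 ± 2.28 and Rac2 18.3 ± 0.464 and 24.0 ± 1.66.

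Clusters C2 and C5 held at least 50 nuclei in every library and were tested, and none of the 10 genes was called in either. In C2, which held 58 to 68 nuclei of each WT library at medians of 1920 to 2258 fragments, 0 of 17360 genes passed limma's adjusted threshold and 2190 had an unadjusted p under 0.05. The KO libraries held 2134 to 2490 nuclei there at medians of 6091.5 to 6594 fragments. Genotype and depth therefore cannot be told apart inside C2. The WT nuclei there scored 12.7, 16.4 and 14.7 for Cited2, against 46.6, 47.4 and 43.1 in KO, a log2 difference of 1.59 (SE 0.24, adjusted p = 0.176). Leaving out WT replicate 1, 2 or 3 brought it past the threshold (adjusted p = 0.0470, 0.0323 and 0.0322). In C5, where 0.89% of 19438 genes were called, Cited2 scored 62.8, 27.4 and 39.1 in WT and 53.0, 59.8 and 60.1 in KO. The WT libraries spread over more than the whole KO range (log2 difference 0.49, adjusted p = 0.406), and without WT replicate 1 the difference was 0.79 (adjusted p = 0.0434). Hdac2, higher in KO over Late nuclei, had the opposite sign inside C2, at 35.6, 41.0 and 44.0 in WT and 31.5, 29.2 and 33.9 in KO, without overlap (log2 difference -0.34, adjusted p = 0.542). In C5 the Hdac2 difference was -0.054 (adjusted p = 0.964). Rac2 differed by 1.77 in C2, where its WT values ran from 0 to 39.6, and by 0.099 in C5 (adjusted p = 0.584 and 0.874).

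**Figure D5:**
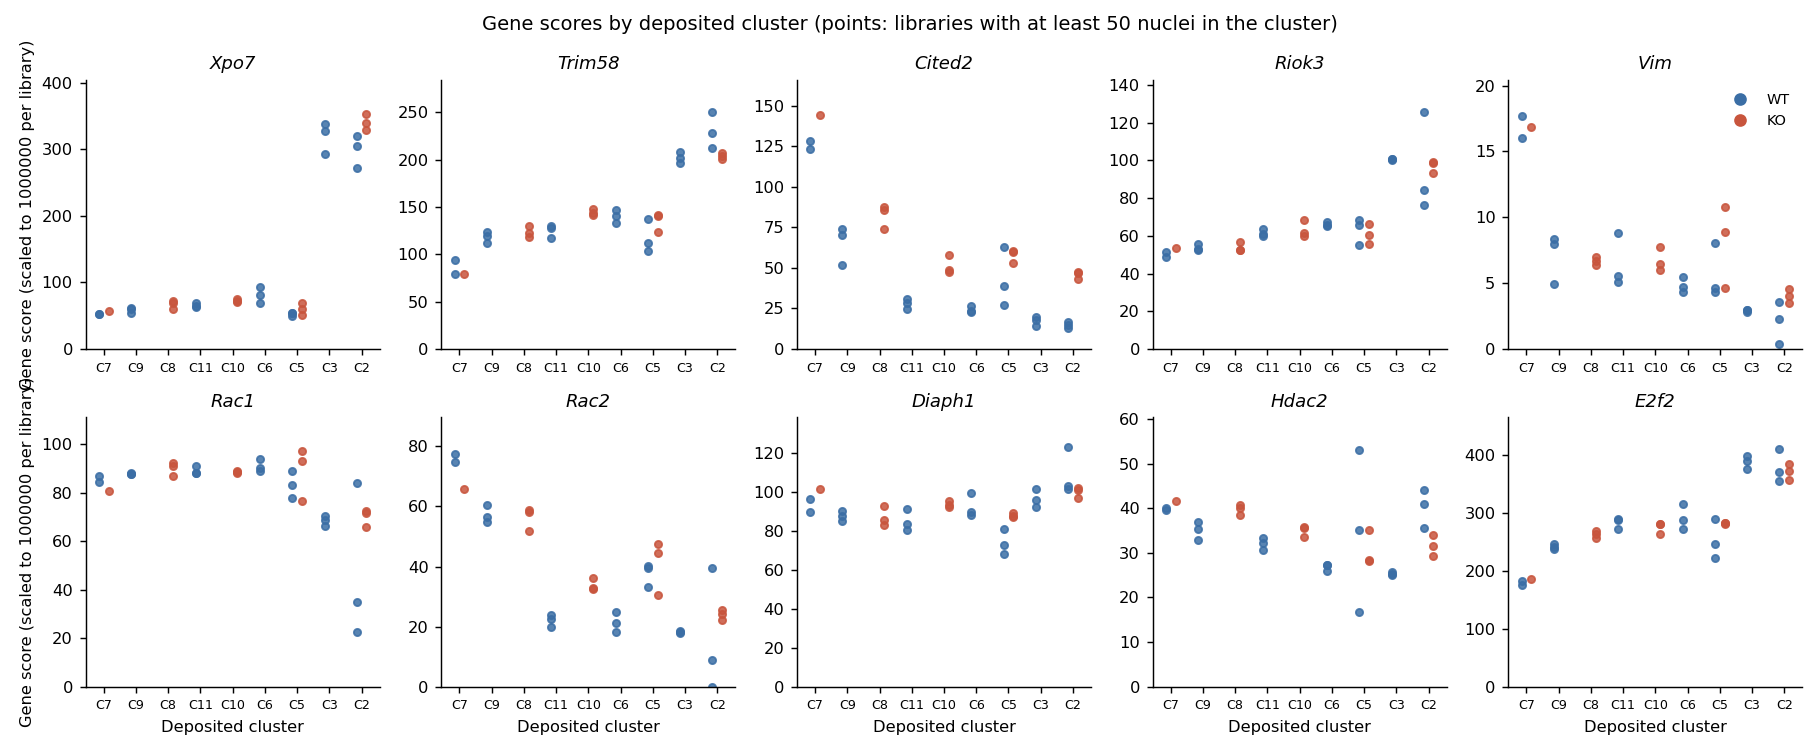
Gene score (vertical axes, scaled to 1000000 per library and starting at 0) of the 10 genes in the authors' clusters (horizontal axes), with WT libraries in blue and KO libraries in red; a point is a library with at least 50 nuclei in that cluster. Cited2 is highest in C7 at 123 to 144. Xpo7 is high in C3, which has WT points only, and in C2 in both genotypes.

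Other genes of the same processes were taken from 5 lists, 77 genes in all, of which 76 were tested. Over all nuclei 5 were higher and 28 lower in KO, with a median log2 difference of -0.079; in Int nuclei 5 were higher and 10 lower, and in Late nuclei 6 and 33. Among all genes tested, 29.1% were called higher and 14.2% lower over all nuclei, 12.7% and 7.1% in Int, and 32.9% and 18.5% in Late nuclei. Of all genes with a mean score above 60, 9.77% were called higher and 30.9% lower over all nuclei. In Int nuclei these shares were 8.41% and 17.4%, and in Late nuclei 11.8% and 32.9%. By process, 3 of 16 actomyosin and polarity genes were higher and 5 lower over all nuclei. Of 12 microtubule and vesicle genes 0 were higher and 3 lower, of 18 chromatin condensation genes 2 and 7, of 13 lamina, export and caspase genes 0 and 4, and of 17 cell cycle exit genes and regulators 0 and 9. The 28 became 3 with nuclei weighted by fragments, 11 under cyclic loess or without a variance trend, 13 under quantile normalization, 16 without KO replicate 2 and 49 under median centring. Of 11 erythroid markers 9 were called lower in KO over all nuclei, among them Klf1 and Gata1, which the cell cycle exit and regulator list holds too and which are counted in both, against those 14.2% and 30.9%. The count was 5 with nuclei weighted by fragments and 6 under cyclic loess.

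The 3 list genes with the highest difference were Rhob, H1f0 and Tmod3. Rhob, a small GTPase, scored 12.9, 17.1 and 12.9 in WT and 40.2, 32.2 and 30.7 in KO (log2 difference 1.21, adjusted p = 4.27e-07). H1f0, the linker histone of cells that stop dividing, scored 6.37, 7.19 and 5.68 in WT and 14.5, 11.01 and 11.5 in KO (0.84, adjusted p = 5.79e-05). Tmod3, a cap of actin filament ends, scored 24.8, 25.0 and 22.1 in WT and 41.4, 38.5 and 37.1 in KO (0.68, adjusted p = 2.42e-06). In all 3 the genotypes stood apart. The 3 lowest were Myh10, a non-muscle myosin heavy chain, at -0.24 (88.7, 89.1 and 86.9 in WT, 75.5, 75.3 and 73.3 in KO, adjusted p = 3.10e-04), Cdkn2c, a cyclin-dependent kinase inhibitor, at -0.22 (adjusted p = 0.00132) and Wdr26, a subunit of a ubiquitin ligase, at -0.21 (adjusted p = 0.00333). The Wdr26 call was lost with nuclei weighted by fragments (-0.18, adjusted p = 0.0996), and in Int nuclei its difference was -0.086 and was not called (adjusted p = 0.230).

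From Int to Late nuclei 24 of the 76 list genes rose and 33 fell in WT, and 24 and 34 in KO, beside 27.4% and 48.6% of all genes tested in WT and 25.9% and 47.5% in KO. The highest rises in WT were those of Ube2o, a ubiquitin enzyme that clears proteins from reticulocytes, at 1.05 on the log2 scale, Bcl2l1, the survival gene of late erythroblasts, at 1.001, and Wdr26 at 0.80. The widest falls were those of Myc, whose decline accompanies maturation, at -1.36, Diaph3, the formin of the cytokinetic ring, at -0.96, and Tubb1, a beta tubulin, at -0.93. All 6 passed at an adjusted p of 1.77e-11 or lower. The KO effect differed between classes for 4 of the 76 list genes, against 7.49% of all genes; E2f4 and Rb1 were named after their values were seen. It was higher in Late for Rhob, by 0.47 (adjusted p = 0.0389), and lower for E2f4, an E2F factor, at -0.31 (adjusted p = 0.000504), for Diaph3 at -0.25 (adjusted p = 0.0171) and for Rb1, the retinoblastoma protein that restrains E2F factors, at -0.23 (adjusted p = 0.0220). Of 17 alternatives, the call was lost in 12 for Rhob, 3 for E2f4, 6 for Diaph3 and 7 for Rb1. All 4 calls were lost with matched nuclei, without a variance trend and with the trend on the mean difference. Rhob also lost it with a pseudocount of 5, with a filter at a mean of 20, with no filter and under quantile normalization, and Rb1 under median centring. Rhob lost it without any 1 of WT replicates 1 and 2 and KO replicates 1, 2 and 3 (adjusted p = 0.181, 0.135, 0.0632, 0.190 and 0.122) and Diaph3 without WT replicate 1, KO replicate 2 or KO replicate 3 (adjusted p = 0.139, 0.0800 and 0.0691). Rb1 lost it without WT replicate 1, KO replicate 1 or KO replicate 2 (adjusted p = 0.149, 0.0828 and 0.131). Diaph3 in Late nuclei scored 70.7, 59.8 and 60.1 in WT and 54.2, 51.6 and 44.8 in KO. Its relative Diaph1 showed no such difference (-0.0092, adjusted p = 0.948).

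Many, but not all, of the courses of the 10 genes over the 12 values of 6 libraries in Int and Late nuclei fell along the class difference. As a description, the log2 scores of Xpo7 and Riok3 ran together with Pearson's r = 0.991, those of E2f2 and Riok3 with 0.989, and those of Xpo7 and Rac1 against each other with -0.969. Cited2 ran less closely with Xpo7, at -0.522, and more closely with Hdac2 (0.899), Rac2 (0.844) and Vim (0.802). Diaph1 ran loosely with Cited2 (-0.292) and with Hdac2 (-0.471). The points share libraries and depth, so no test is given. The genes on other chromosomes whose 12 values were most like those of Cited2 were Mir7666 (r = 0.996), Zscan20 and Gm13986 (both 0.987). For Rac2 they were Ptpre (0.994), Cela3b (0.992) and Galnt7 (0.991), and for Xpo7 they were Smg6 (0.997), Tcp11l2 (0.996) and Tbcel (0.996).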

How the data were processed

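Nuclei of sorted Ter119+ erythroblasts were profiled with the 10x multiome protocol, and the submitters' processing notes name Cell Ranger and mm10. The authors deposited a signal, the gene score of each gene in each nucleus, scaled so that each nucleus summed to 10000 within rounding (9999.855 to 10000.12). How fragments were weighted is not given in the sources used here. The deposited table of nuclei gave counts of ATAC fragments and, per the file headers, a doublet enrichment score, class, cluster and genotype; doublets were not removed a second time. Library names were matched to samples through the labels' library names.

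Mean scores per library were rescaled to 1000000 and compared on log2(value + 1), which understates changes of low scores, with limma 3.58.1 in R 4.3.3 (eBayes with a variance trend, two-sided), keeping genes with a mean of at least 5; p-values were adjusted by Benjamini-Hochberg. Within-library Late minus Int differences used the trend on the mean level, whereas limma's default takes it on the mean difference. Classes and clusters needed 50 nuclei in every library, which left out Early. Scripts were tested on simulated data. Other steps used Python 3.11.15 with numpy 2.4.6, pandas 2.3.3, scipy 1.17.1 and matplotlib 3.10.9. Of the gene symbols, 23863 were in a GRCm38.p6 table, with left ends within 1000 bases for 91.1%.

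The 10 genes, the 5 lists, the markers and the tests were chosen with earlier results of these data known. Named list genes were the 3 highest and 3 lowest past the threshold over all nuclei and from Int to Late in WT; likeness was Pearson's r of log2 values on other chromosomes. The count of CG dinucleotides was added after the promoters were seen. Alternatives were the pseudocount, the filter, 3 scalings, weighting and matching by fragments, the variance trend, a replicate block and leaving out each library, and, added after seeing the data, equal class weights, removal of nuclei with a doublet enrichment over 2 and the trend on the mean difference.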

Additional observations from a re-analysis of the deposited data

Results flagged for a closer look

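The KO effect on the Cited2 score differed between the classes: it was larger in Late than in Int nuclei by 0.62 on the log2 scale (limma on within-library differences, adjusted p = 0.00566). On that scale 3 of 3 WT libraries fell more than any KO library, which did not hold in score units. The Cited2 difference was the one of its kind called among the 10 genes, beside 7.49% of all genes tested. Under quantile normalization E2f2 was called (-0.15, adjusted p = 0.0162) and Cited2 was not (0.37, adjusted p = 0.0818). The Cited2 call was also lost with matched nuclei (adjusted p = 0.145), without a variance trend (0.154) and with the trend on the mean difference (0.152). Over the 17 alternatives of Cited2 the adjusted p ranged from 2.22e-06 to 0.154. The median of the same difference between classes over 6 stem cell markers was 0.43, with 1 called higher. It was -0.10 over 7 myeloid markers, with 1 called lower, -0.037 over 5 lymphoid and -0.027 over 5 megakaryocyte markers. Over 11 erythroid markers it was -0.059, with 2 called lower. The part of these markers was not tested. The KO effect also differed between the classes for 4 of 76 list genes, near the 7.49% of all genes tested. It did so by 0.47 for Rhob, -0.31 for E2f4, -0.25 for Diaph3 and -0.23 for Rb1 (limma adjusted p = 0.0389, 0.000504, 0.0171 and 0.0220), with the alternatives that ended these calls given above.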

How the results depend on the processing

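With a filter at a mean of 20, 4244 genes were called over all nuclei, 4560 in Late nuclei, 7886 and 7814 from Int to Late in WT and KO, and 601 for the KO effect between classes; fewer genes are tested there. With nuclei weighted by fragments 2415 genes and 1 of the 10 genes were called over all nuclei, and under quantile normalization and cyclic loess 2 of the 10. Without a variance trend 1921 genes and 1 of the 10 were called in Int nuclei. Quantile normalization called 1 of the 10 in Late nuclei and 741 genes between classes. With matched nuclei, 797 of each class in each library, 7883 genes and 6 of the 10 were called from Int to Late in KO. For the KO effect between classes, matched nuclei gave 25 genes, no variance trend 430 and the trend on the mean difference 28, each with 0 of the 10. The causes were not tested.

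Signs turned mostly for uncalled differences near 0. Under median centring KO against WT was -0.095 for Xpo7, -0.12 for Trim58, -0.12 for Rac1 and -0.10 for Diaph1 over all nuclei. In Int nuclei it was -0.10 for Xpo7, -0.063 for Trim58, -0.025 for Vim, -0.17 for Rac1, -0.13 for Diaph1, -0.025 for Hdac2 and -0.17 for E2f2. In Late nuclei it was -0.055 for Trim58, -0.024 for Rac1 and -0.023 for Diaph1. Centring also turned Hdac2 from Int to Late in KO to 0.015 and the KO effect between classes of Riok3 to -0.0071. Cyclic loess turned Riok3 to 0.0046 and E2f2 to 0.020 over all nuclei, Riok3 to 0.044 in Late nuclei and Diaph1 between classes to 0.013. Quantile normalization turned Riok3 in Late nuclei to 0.035, and Vim and Diaph1 between classes to -0.0068 and 0.0046. Weighting by fragments turned Xpo7 to -0.070 over all nuclei, Trim58 to -0.020 in Late nuclei, and Xpo7, Riok3 and Rac2 between classes to -0.0025, -0.040 and 0.090.

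Leaving out 1 library at a time gave 2 to 4 of the 10 genes over all nuclei (2 without KO replicate 1 or 3), with Rac1 at -0.0026 to 0.041, Trim58 at -0.0055 to 0.048 and Xpo7 at -0.011 to 0.12. In Int nuclei 2547 to 4782 genes were called, with the lowest count without KO replicate 1, and Rac1 was -0.015 to 0.030 and E2f2 -0.038 to 0.028. In Late nuclei Trim58 was -0.012 to 0.031 and Riok3 -0.045 to 0.0024. Between classes 375 to 2700 genes were called (413 without WT replicate 1, 2700 without WT replicate 3, 720 without KO replicate 1 and 375 without KO replicate 2), with Xpo7 at -0.054 to 0.10, Diaph1 at -0.028 to 0.027, Riok3 at -0.0048 to 0.023, Rac1 at -0.0024 to 0.089 and Rac2 at -0.18 to 0.052. Cluster C2 gave 0 to 1161 genes and 0 to 2 of the 10 (395, 873 and 1161 genes without WT replicate 1, 2 or 3). Cluster C5 gave 8 to 329 genes and 0 to 1 of the 10 (329 without WT replicate 1, and 8, 26 and 10 without KO replicate 1, 2 or 3). The KO minus WT difference in the share of Int nuclei was -3.36 to 8.96 percentage points and of Late nuclei -8.62 to 3.10, the signs turning without WT replicate 1.

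A replicate block called 7470 genes and 4 of the 10 over all nuclei, 4527 and 2 in Int, 7982 and 3 in Late nuclei, and 1844 and 1 between classes. The labels do not say whether libraries of the same number share more than that number. Deviations of these libraries from the group means correlated at -0.12, -0.27 and 0.21. Between WT and KO libraries of unlike number they correlated at -0.33 to 0.42.

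Limits: a score is accessibility, not RNA, and shares fragments with neighbours. Low scores such as that of Vim rest on few nuclei, and Late nuclei are shallower. Genotype and cluster cannot be told apart in most clusters.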
